A study of Mus musculus with 16 samples.

Results

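The genes through which serotonin is made, stored, recaptured and broken down were followed in mouse dorsal raphe nucleus (DRN) tissue, a midbrain cell group that sends most of the serotonergic axons of the forebrain. They were 10 genes chosen by name (Tph2, Ddc, Gch1, Gchfr, Pts, Qdpr, Slc18a2, Slc6a4, Maoa and Maob), and all 10 were found among the 14504 genes with values. PolyA RNA had been sequenced from 16 libraries of young adult male C57BL/6 mice that the study treats as biological replicates. Control mice had not been stressed and gave 3 saline and 3 dexamethasone (DEX) libraries. The other mice were exposed to chronic social defeat for 30 days and were sorted by clustering of their behavior into a passive coping phenotype (PS, 2 saline and 3 DEX libraries) and an active coping phenotype (AS, 3 saline and 2 DEX libraries). DEX, a synthetic agonist of the glucocorticoid receptor (GR), was injected at 2 mg/kg, control injections were saline, and tissue was collected 6 h later in every group. All groups had the same genotype label, C57BL6.

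Serotonin is made from tryptophan in a pair of steps, hydroxylation by tryptophan hydroxylase 2 (Tph2) and decarboxylation by aromatic amino acid decarboxylase (Ddc). The hydroxylase consumes tetrahydrobiopterin, a cofactor built from GTP by GTP cyclohydrolase (Gch1), which is held in check by its feedback regulatory protein (Gchfr), and then by 6-pyruvoyltetrahydropterin synthase (Pts), while dihydropteridine reductase (Qdpr) returns the used cofactor to its active form. The vesicular monoamine transporter (Slc18a2) loads serotonin into vesicles, the serotonin transporter (Slc6a4) takes it back from the extracellular space, and the mitochondrial monoamine oxidases (Maoa and Maob) degrade it. Tph2 and Slc6a4 mark serotonergic neurons, whereas Qdpr and the oxidases are also made by other cells of the brain.

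The libraries held 38207157 to 62447298 reads in the listed genes, and the 10 serotonin genes took 0.703% to 1.09% of them. Fkbp5, a GR target used as a check of the treatment, lay between 1241 and 1536 normalized counts in the 8 saline libraries and between 5578 and 6958 in the 8 DEX libraries (log2 difference 2.15, SE 0.061, adjusted p = 7.70e-11). The transcription factors of serotonergic neurons (Fev, Gata2, Gata3, Lmx1b and En1) were all measured, with a summed level of 16438 to 27512 normalized counts under saline and 17235 to 21240 under DEX. None of the 4 markers of noradrenergic neurons was among the listed genes, and neither was Pitx3 of dopamine neurons. According to the methods of the study, DRN samples whose Tph2 was a low outlier had been removed before these values were made. The rule was stated for DRN samples in general, and those removed came from DEX-treated PS and AS mice. Other libraries of the design were not analysed here. The DEX differences of Tph2 in PS and AS, and those of genes that vary with it, were therefore measured on animals partly chosen by Tph2. In a tissue sample, fewer cells of a type and less RNA per cell cannot be told apart. A single library, AS saline 40, held the highest value of 7 of the 10 genes and received the lowest weight of all libraries when weights were estimated over all genes (0.184, against 0.319 to 5.66 for the others), so values without it are given beside the results it moved most.

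The sequences before the start sites of the 3 genes below are shown because they belong to the gene that opens synthesis (Tph2), the gene that fell with DEX (Qdpr) and the vesicular transporter whose level relative to Tph2 differed with DEX (Slc18a2). RefSeq promoter windows on GRCm38.p6, from 250 bases before to 50 bases after a start site, were found for 9 of the 10 genes, with 2 start sites for Ddc. Maob had no entry. The stretches printed run from -250 to -21 relative to the first transcribed base on the gene's own strand, and capitals mark matches, on either strand, to the GR hexamer AGAACA, the GATA motif AGATAA or the TATA motif TATAAA.
Tph2, minus strand, chr10:115185043-115185272: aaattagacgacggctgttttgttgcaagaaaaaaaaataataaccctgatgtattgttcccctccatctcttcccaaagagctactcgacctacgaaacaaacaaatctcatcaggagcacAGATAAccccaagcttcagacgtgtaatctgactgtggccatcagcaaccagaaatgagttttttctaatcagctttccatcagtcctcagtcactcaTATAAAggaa
Qdpr, minus strand, chr5:45450250-45450479: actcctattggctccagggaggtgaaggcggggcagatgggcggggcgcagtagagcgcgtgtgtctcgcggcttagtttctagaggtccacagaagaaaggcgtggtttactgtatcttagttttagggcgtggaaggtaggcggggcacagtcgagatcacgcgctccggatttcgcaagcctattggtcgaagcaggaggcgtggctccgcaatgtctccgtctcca
Slc18a2, plus strand, chr19:59260628-59260857: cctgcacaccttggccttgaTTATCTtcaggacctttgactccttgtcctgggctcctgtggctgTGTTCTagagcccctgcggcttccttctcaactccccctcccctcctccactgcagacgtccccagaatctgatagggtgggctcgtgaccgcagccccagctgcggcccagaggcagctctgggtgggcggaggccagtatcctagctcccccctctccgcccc

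Tph2 carried the TATA motif at -30 and the GATA motif at -128. Slc18a2 carried the reverse complement of the GATA motif at -230 and that of the GR hexamer at -185. The window of Qdpr held the GR hexamer once, at 23 bases past the start site and so outside the printed stretch, and neither of the other motifs. Over all 9 genes, the GR hexamer was present in 2, the GATA motif in 2, the TATA motif in 3 and the ETS core CCGGAA in 1 (Pts). Of the 32851 RefSeq windows of the same length, 19.0% held the GR hexamer, 11.2% the GATA motif, 13.6% the TATA motif and 14.9% the ETS core. Both strands were searched, and no match of 1 motif overlapped another in the stretches shown. The GR hexamer followed after 3 bases by its own reverse complement was in none of the windows of these genes and in 3 of all windows. GC content ran from 41.3% at the first start site of Ddc and 47.3% at Tph2 to 67.7% at Slc6a4. These matches describe letters in the windows, and binding was not measured.

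Levels were compared between genes per length, as RPKM, reads divided by the length of the annotated exons and by the total in the listed genes. Tph2 stood at 926 ± 183 RPKM (SD, n = 16 libraries), the 13th highest level of all genes. Slc6a4 followed at 456 ± 63.6 RPKM, Ddc at 317 ± 43.8 RPKM and Slc18a2 at 253 ± 31.7 RPKM. These 4 genes kept this order in 16 of 16 libraries, so the synthesis enzymes and both transporters of the serotonergic neuron were among the most abundant transcripts of the tissue. Gchfr (155 ± 46.1 RPKM), Maob (148 ± 23.6 RPKM) and Qdpr (123 ± 24.8 RPKM) formed a middle tier in which neighbours did not keep their order. Gchfr was above Maob in 6 of 16 libraries, and Maob was above Qdpr in 13 of 16. Maoa (30.4 ± 4.16 RPKM) and Gch1 (27.3 ± 5.31 RPKM) came next, with Maoa the higher in 14 of 16 libraries, and Pts was lowest at 6.57 ± 1.60 RPKM. With the longest annotated transcript as the length, the first 4 places and the last were kept, while Maob moved to place 5, Qdpr to 6, Gchfr to 7, Gch1 to 8 and Maoa to 9. Gchfr, the regulator, was thus present at a higher level per length than Gch1, the enzyme it binds, in either scale. Antisense genes overlap Ddc, Qdpr, Slc18a2 and Slc6a4. The paper reports a high strand specificity for each sample. Whether the counting used strand is not stated, so reads of the partners could be mixed. The partner of Slc6a4 was not among the listed genes. The listed level of the partner reached at most 2.61% of that of Qdpr, 0.205% of that of Ddc and 0.157% of that of Slc18a2.

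**Figure D1:**
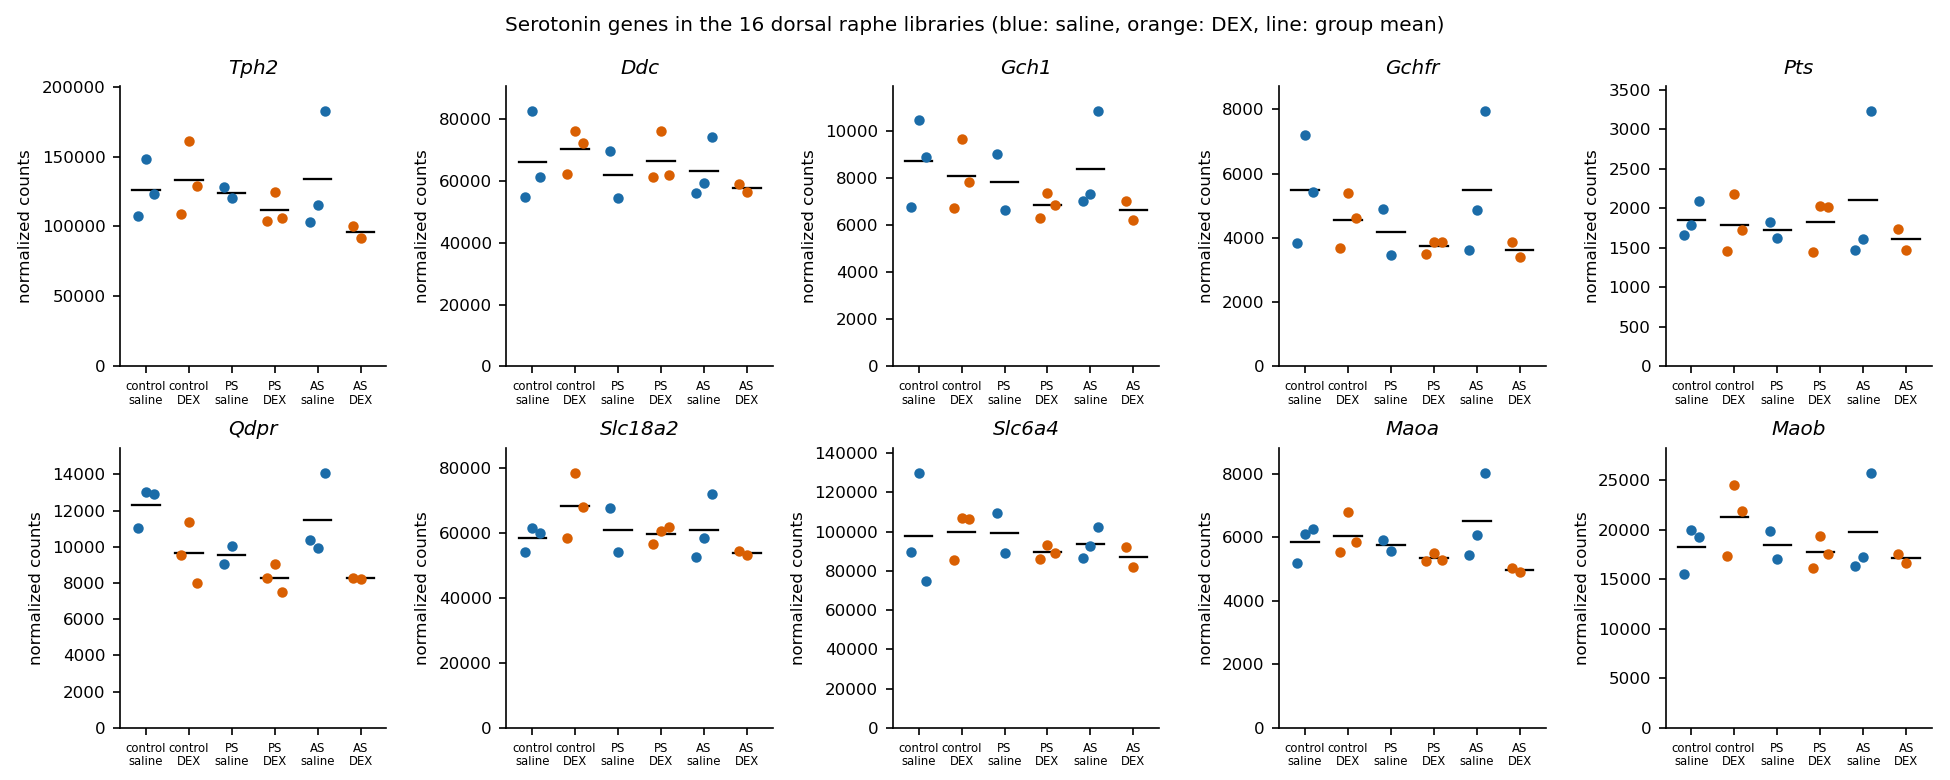
Normalized counts (vertical axes from 0) of the 10 serotonin genes in each of the 16 libraries by group, with saline in blue, DEX in orange and a line at each group mean. The right-hand point of AS saline, library 40, is the highest of all 16 in 7 panels, and for Qdpr both AS DEX libraries (8267 and 8246) lie below every saline library.

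Qdpr was the only one of the 10 genes that passed the test in any of the 15 comparisons made with limma. It lay at 11033, 13029 and 12913 normalized counts in control saline and at 9539, 11364 and 8002 in control DEX. In PS it lay at 9035 and 10023 under saline and at 8281, 9060 and 7482 under DEX. In AS it lay at 10388, 9912 and 14077 under saline and at 8267 and 8246 under DEX. The AS groups did not overlap, whereas the control DEX library con_dex_116 and PS DEX 34 each lay above the lowest saline library of their phenotype. Averaged over the 3 phenotypes, Qdpr was lower with DEX (a change of -21.1%, 95% interval -31.1% to -9.64%), a log2 difference of -0.34 (SE 0.091, adjusted p = 0.0632 by limma with Benjamini-Hochberg adjustment over all 14504 genes, threshold 0.1). In this comparison 4.31% of all genes were called, 403 higher and 222 lower, so that 1.53% of all genes were called lower, against 1 of the 10 serotonin genes.

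Within single phenotypes the DEX difference of Qdpr was -0.37 in control (SE 0.15, adjusted p = 0.347), -0.21 in PS (SE 0.16, adjusted p = 0.9999) and -0.45 in AS (SE 0.16, adjusted p = 0.403), and the differences between phenotypes did not pass the test (adjusted p 0.869 or more). DESeq2 and edgeR on the recovered reads also called the average, with adjusted p of 0.0129 and 0.0702. When each of the 16 libraries was left out in turn the call was lost in 8 cases, namely without con_sal_104, con_dex_101 and con_dex_122 (control libraries by their labels), PS saline 62, PS saline 68, PS DEX 64, AS DEX 38 and AS DEX 42 (adjusted p 0.104 to 0.214), while the log2 difference stayed between -0.38 and -0.29. Without AS saline 40 it was -0.29 (SE 0.077, adjusted p = 0.0695).

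Single markers of other cell types were called with the same treatment. Of the 7 myelin genes, Mog and Cnp were called lower with DEX on average (log2 differences -0.43 and -0.37), none was called higher, and the summed level of the list ran from 133077 to 218774 normalized counts under saline and from 131734 to 185260 under DEX. Of the 8 astrocyte genes, 5 differences were positive and 3 negative on average (median 0.066). Only Gjb6, which encodes a gap junction protein, was called, and it was higher (0.58, limma adjusted p = 0.000737). It was also called in control (0.53) and in PS (0.75). The summed level of the list ran from 57685 to 92756 under saline and from 82655 to 91681 under DEX. Of the 5 microglia genes, Cx3cr1 and P2ry12 were called lower (-0.83 and -0.59), and the summed level ran from 3927 to 5328 under saline and from 3238 to 3871 under DEX. No marker of these 3 lists was at 0 in any library. Qdpr correlated with the myelin score over the 16 libraries (r = 0.60, permutation p = 0.0148, adjusted p = 0.121 over 90 relations of genes with marker lists; rho = 0.73, permutation p = 0.0020, adjusted p = 0.0312). The relation was r = 0.16 in the 8 saline and r = 0.85 in the 8 DEX libraries, and r = 0.66 without the 2 libraries farthest from the median of Qdpr. With the myelin score as a covariate the DEX difference of Qdpr was -0.29 (SE 0.10, adjusted p = 0.261), and with the astrocyte score -0.38 (adjusted p = 0.0404). The microglia score separated the saline from the DEX libraries, so no pooled value is given, and within treatments r with Qdpr was 0.55 under saline and 0.29 under DEX. The part of the microglia markers in the result was not tested.

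**Figure D2:**
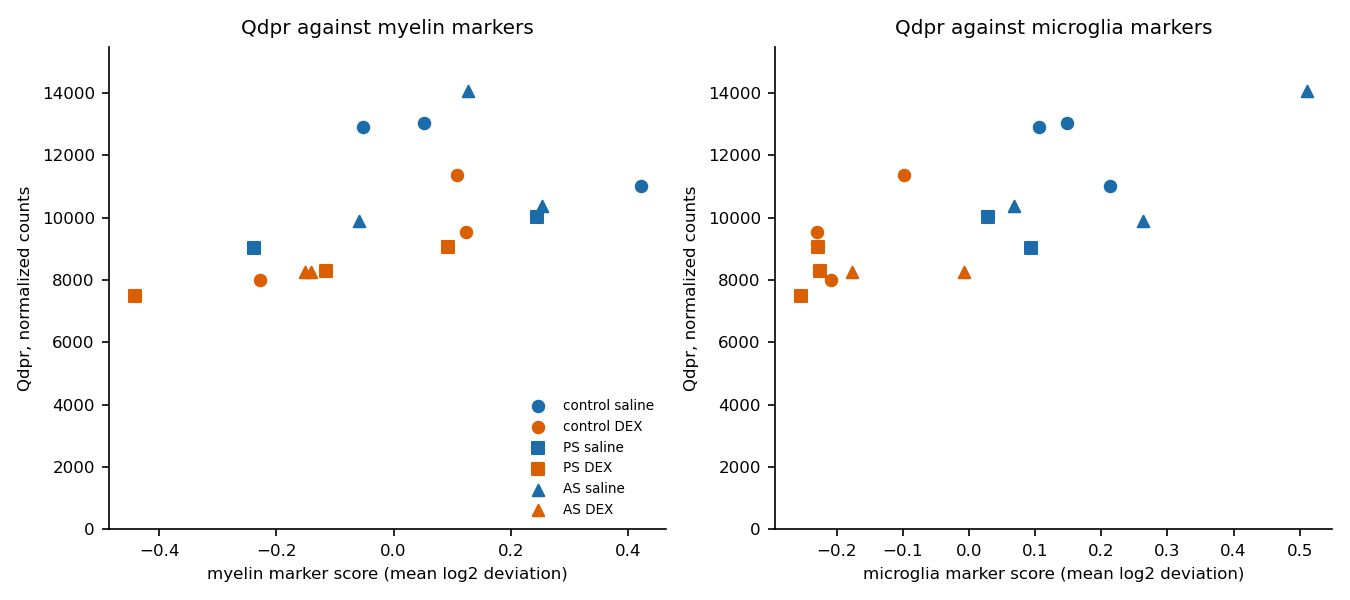
Normalized counts of Qdpr (vertical axis from 0) against the score of 7 myelin genes (left) and 5 microglia genes (right), which is the mean log2 deviation of the markers from their own means; circles are control, squares PS, triangles AS, blue saline and orange DEX. The saline libraries lie to the right of all DEX libraries in the microglia panel, while in the myelin panel the treatments overlap along the horizontal axis.

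Among the synthesis enzymes, Tph2 was not called in any comparison. It lay at 107794, 148070 and 123390 normalized counts in control saline and at 108805, 161346 and 128674 in control DEX, which overlap fully. In PS the values were 127929 and 120602 under saline against 103851, 124443 and 106205 under DEX. In AS they were 103435, 115333 and 182191 under saline against 100562 and 91764 under DEX, so both DEX libraries lay below every saline library. The log2 difference was 0.066 in control, -0.16 in PS and -0.43 in AS (SE 0.24, 95% interval -0.96 to 0.093, adjusted p = 0.562), and -0.18 on average (adjusted p = 0.567). Without AS saline 40 the difference in AS was -0.19 and the average was -0.093. The removal of DEX samples with low Tph2 touches the PS and AS values directly.

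Ddc, the second enzyme, gave 54692, 82353 and 61120 normalized counts in control saline and 62044, 76184 and 72196 in control DEX. Its groups overlapped in every phenotype, with group means of 61981 and 66346 in PS (saline and DEX) and 63162 and 57601 in AS. The DEX difference on the log2 scale was 0.10 in control, 0.10 in PS and -0.12 in AS, and the average of 0.027 had a 95% interval from -0.21 to 0.26 (adjusted p = 0.923). Leaving out AS saline 40 gave -0.0013 in AS and 0.068 on average.

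Of the cofactor genes other than Qdpr, Gchfr had the largest average difference. It lay at 3831, 7210 and 5418 normalized counts in control saline, 3681, 5392 and 4620 in control DEX, 4894 and 3474 in PS saline, and 3486, 3866 and 3868 in PS DEX. In AS it lay at 3635, 4855 and 7930 under saline and at 3855 and 3417 under DEX. The saline libraries were spread widely in each phenotype and the DEX libraries lay within or just under that spread. The average DEX difference was -0.30 (SE 0.16, adjusted p = 0.435) and that in AS was -0.52. They were -0.20 and -0.21 without AS saline 40. For Gch1, the enzyme, the averages by group were 8710 and 8063 normalized counts in control (saline and DEX), 7821 and 6836 in PS, and 8388 and 6621 in AS. Both AS DEX libraries of Gch1 (7034 and 6208) were below the lowest AS saline library, at 7038, by a margin of a few counts in the first case. Its average difference was -0.20 (SE 0.12, adjusted p = 0.472), or -0.13 without AS saline 40, where the AS difference went from -0.32 to -0.12. Pts ranged from 1445 to 2176 normalized counts in all libraries other than AS saline 40, which stood at 3224, and its average difference of -0.097 (adjusted p = 0.793) became 0.021 without that library, where its AS difference went from -0.30 to 0.056.

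Neither transporter was called in any comparison. Slc18a2 lay at 54117, 61283 and 59774 normalized counts in control saline and 58493, 78330 and 68013 in control DEX, with overlapping groups (log2 difference 0.22, adjusted p = 0.570). In AS it lay at 52392, 58312 and 71901 under saline and 54304 and 53266 under DEX (-0.17, adjusted p = 0.683), and the average was 0.011, with a 95% interval from -0.19 to 0.21. The 2 values were -0.039 and 0.053 without AS saline 40. Slc6a4 spanned 74627 to 129820 within the control saline group alone, wider than any difference between group means. Its DEX difference was 0.056 in control, -0.14 in PS and -0.11 in AS, with an average of -0.066 and a 95% interval from -0.32 to 0.19 (adjusted p = 0.817). The AS value was -0.046 and the average -0.044 without AS saline 40.

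The oxidases are encoded side by side on the X chromosome of GRCm38, Maoa at chrX:16619698-16687818 on the plus strand and Maob at chrX:16709282-16817366 on the minus strand. Maoa gave 5197, 6093 and 6268 normalized counts in control saline and 5528, 6789 and 5845 in control DEX, which overlap. In PS all 3 DEX libraries (5251, 5511 and 5284) were below both saline libraries (5925 and 5582). In AS both DEX libraries (5040 and 4910) were below all saline libraries (5444, 6065 and 8025). The log2 differences were 0.048 in control, -0.10 in PS (SE 0.14, adjusted p = 0.9999) and -0.37 in AS (SE 0.14, 95% interval -0.68 to -0.062, adjusted p = 0.471), with an average of -0.14 (adjusted p = 0.443). None of these passed the test, and without AS saline 40 the difference was -0.21 in AS and -0.088 on average. The difference between AS and control in the response of Maoa was -0.42 (SE 0.19, adjusted p = 0.941), or -0.26 without that library. Maob in control had a log2 difference of 0.21, from a mean of 18262 ± 2373 (SD, n = 3) under saline to 21262 ± 3599 (SD, n = 3) under DEX, and was 18474 against 17711 in PS and 19777 against 17118 in AS. Its average difference was -0.0084, with a 95% interval from -0.24 to 0.22. Leaving out AS saline 40 took the AS difference of Maob from -0.18 to 0.027 and the average to 0.060.

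**Figure D3:**
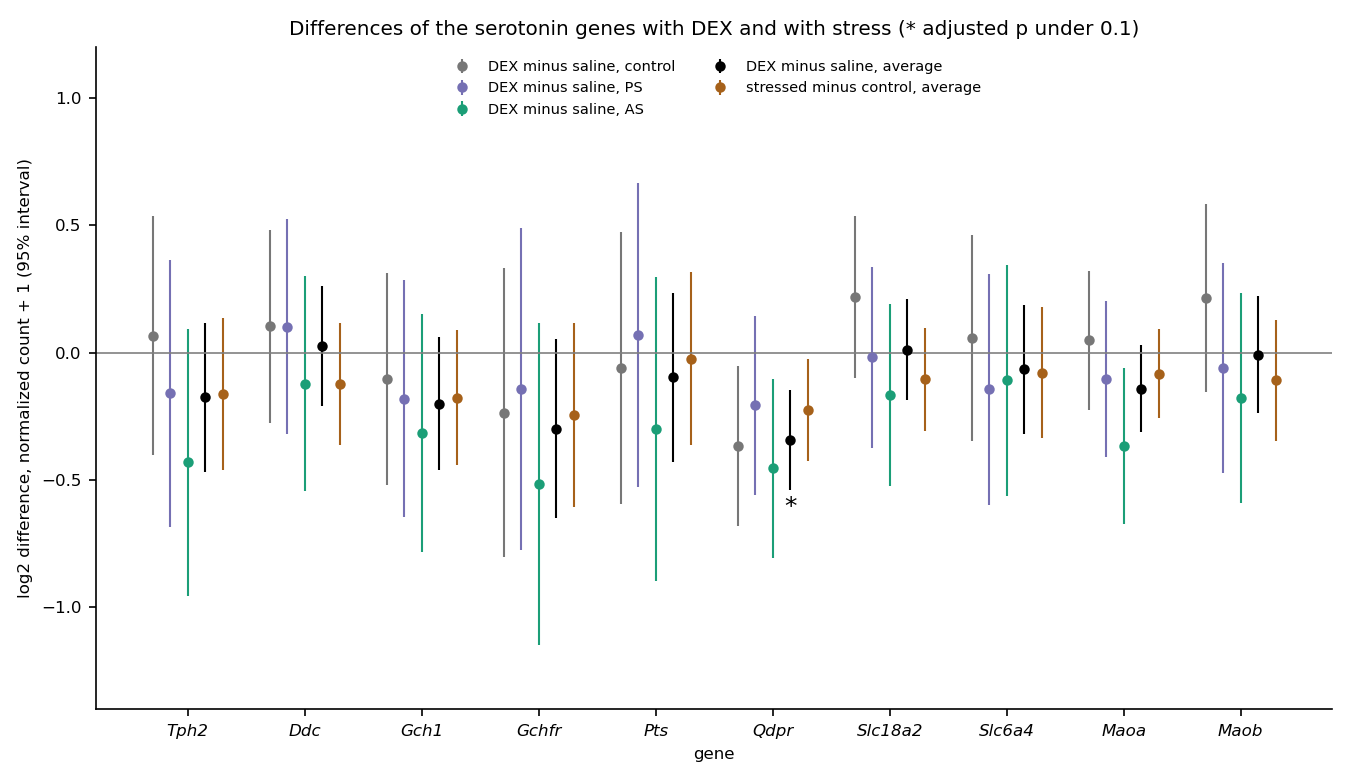
Log2 differences of normalized count + 1 with 95% intervals from the limma fit for each of the 10 genes, in order of their roles: DEX minus saline in control (grey), PS (violet), AS (green) and averaged (black), and stressed minus control averaged over phenotypes and treatments (brown). The star marks the only call, Qdpr in the DEX average; all 10 green points lie below 0, and 8 of the green intervals cross it.

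The 10 genes were then counted in each phenotype. With DEX in control 4 of 10 differences were negative (median 0.052) and 0 of 10 genes were called, where 1.26% of all genes were. With DEX in PS 8 of 10 were negative (median -0.12) and 0 were called, against 0.703% of all genes. In AS all 10 were negative (median -0.31) and 0 were called, against 0.689% of all genes, while the median of all genes was -0.0060. Of all genes, 49.3% were negative in control, 51.1% in PS and 50.9% in AS. The 10 genes varied together over the libraries (median r = 0.74), so their shared signs are not separate results. At an unadjusted p under 0.05 the limma counts were 1 in control (Qdpr), 0 in PS and 2 in AS (Qdpr and Maoa). DESeq2 gave 1, 0 and 4 at that level and edgeR 1, 0 and 2, and after adjustment both called 0 in each of the 3 phenotypes. Every DEX library lay below every saline library for 0 genes in control, where 7.43% of all genes had that pattern, for 1 in PS (Maoa, against 10.1%) and for 4 in AS (Tph2, Gch1, Qdpr and Maoa, against 14.8%). Without AS saline 40, 8 of 10 differences in AS were negative and the median was -0.082. The 3 DEX comparisons use separate libraries. Some marker lists also had a shared sign in AS. All 6 genes of ependymal cilia (median -0.70) and all 7 myelin genes (median -0.13) were negative. All 3 GABA genes (median 0.36) and all 4 measured dopamine neuron genes (median 0.37) were positive. Among these, 0 were called. The summed levels in AS saline and AS DEX were 2685 to 8202 and 1606 to 7440 for the ependymal genes, 153245 to 190814 and 147688 to 154581 for myelin, and 34723 to 45495 and 44063 to 56361 for the GABA genes, and no marker was at 0. For the dopamine neuron genes the summed levels were 3310 to 6399 in AS saline and 5373 to 5895 in AS DEX. The summed levels of AS saline and AS DEX overlapped for each of these lists. The part of these markers in the AS differences was not tested.

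Chronic stress was compared within each treatment. Under saline 0 of 10 genes were called in PS against control, in AS against control or in AS against PS, as were 0% of all genes, and DESeq2 and edgeR called 0 of the 10 as well. At an unadjusted p under 0.05 there was 1 gene in PS against control, Qdpr (log2 difference -0.37, SE 0.16, adjusted p = 0.571), and there were 0 in the other saline comparisons. Qdpr lay at 9035 and 10023 normalized counts in PS saline and at 11033, 13029 and 12913 in control saline. The share of all genes with groups apart in this way was not counted for the stress comparisons. Under DEX 0 of 10 genes were called in PS against control or in AS against PS (0% of all genes) and in AS against control (0.00689% of all genes, a single gene), and 0 were called by DESeq2 or edgeR. At an unadjusted p under 0.05 limma gave 0 of the 10 in each, while DESeq2 gave 2 and edgeR 1 in AS against control and 0 in the others. Averaged over phenotypes and treatments, all 10 differences of stressed from control mice were negative, from -0.25 (Gchfr) to -0.024 (Pts), with a median of -0.12 against 0.0075 for all genes. Of all genes 47.8% were negative, and the 10 genes varied together, so their shared sign is not 10 separate results. Here 0 of 10 and 0% of all genes were called, 1 of the 10 (Qdpr, -0.23, SE 0.093, adjusted p = 0.748) had an unadjusted p under 0.05, DESeq2 and edgeR called 0, and without AS saline 40 the median was -0.16. The intervals do not exclude sizeable differences, since that of Gchfr ran from -0.61 to 0.12 and that of Tph2 from -0.46 to 0.13. AS against PS averaged over treatments gave 0 calls by limma, DESeq2 or edgeR (0% of all genes), 0 genes at an unadjusted p under 0.05 and a median of 0.011, which was -0.091 without AS saline 40.

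The test of whether the DEX response differed between phenotypes gave 0 of 10 genes called for PS against control, AS against control and AS against PS (0% of all genes in each), by limma, DESeq2 and edgeR. For AS against control all 10 estimates were negative, as were 52.2% of all genes (medians -0.26 and -0.015). The 10 estimates, from genes that varied together, ran from -0.50 for Tph2 (95% interval -1.20 to 0.21) to -0.089 for Qdpr. Of these genes 1, Maoa, had an unadjusted p under 0.05. When AS saline 40 was left out, 7 of 10 were negative with a median of -0.10, Tph2 was at -0.25, and Qdpr (0.068), Gchfr (0.024) and Pts (0.12) were positive. The comparisons of PS and of AS with control share control libraries with the DEX comparison in control.

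Over the 16 libraries the 10 genes varied together. All 45 pairs had a positive Pearson correlation of log2(normalized count + 1), from 0.23 to 0.96 with a median of 0.74. By permutation of the libraries 39 of the 45 had an adjusted p under 0.05, and 37 did by Spearman's rho. Gch1 and Gchfr, the enzyme and its regulator, had the highest value (r = 0.96, rho = 0.94, permutation p = 1.0e-05 for both, the smallest that 100000 resamples can give), followed by Tph2 with Maoa (r = 0.93, rho = 0.89) and Slc18a2 with Maob (r = 0.92, rho = 0.88). For these 3 pairs r was 0.92, 0.83 and 0.85 without the 2 libraries farthest from the median of the first gene. Centring each gene on its group means left 45 positive pairs with a median of 0.84, and the medians were 0.79 in the saline and 0.82 in the DEX libraries. Without AS saline 40 the median was 0.67 and all 45 pairs were still positive. All genes of a library share its dissection, depth and scaling, so these values describe libraries and not a link between genes.

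Qdpr and Slc6a4 varied least with the rest over all 16 libraries. The pair of them had the lowest correlation (r = 0.23, permutation p = 0.396, rho = 0.17, permutation p = 0.519), which was -0.24 without AS saline 40 and con_sal_104. The median correlation of Qdpr with the other 9 genes was 0.52 and that of Slc6a4 was 0.59, against 0.74 for Gchfr and 0.83 for Tph2. Qdpr with Slc18a2 (r = 0.28), Qdpr with Ddc (r = 0.30) and Pts with Slc6a4 (r = 0.29) were also low. For Slc6a4 the values depended on the libraries used. Under saline its r was 0.40 with Maob, 0.23 with Maoa, 0.81 with Ddc and 0.093 with Qdpr. Under DEX these were 0.94, 0.82, 0.80 and 0.40. Without con_sal_104 and con_sal_114, r of Slc6a4 was 0.82 with Maob and 0.68 with Maoa. Among the 12862 other genes with a mean of at least 100 normalized counts, the other 9 serotonin genes stood at a median rank of 52 by likeness to Slc18a2 and 59 by likeness to Gch1 and to Maob, but at 1218 for Slc6a4 and 2372 for Qdpr, in centred values. None of the other 9 genes was in the top 5% of genes most like Qdpr, while 7 of 9 were for Gch1, Slc18a2 and Maob. These ranks used all 16 libraries and were not computed without AS saline 40.

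**Figure D4:**
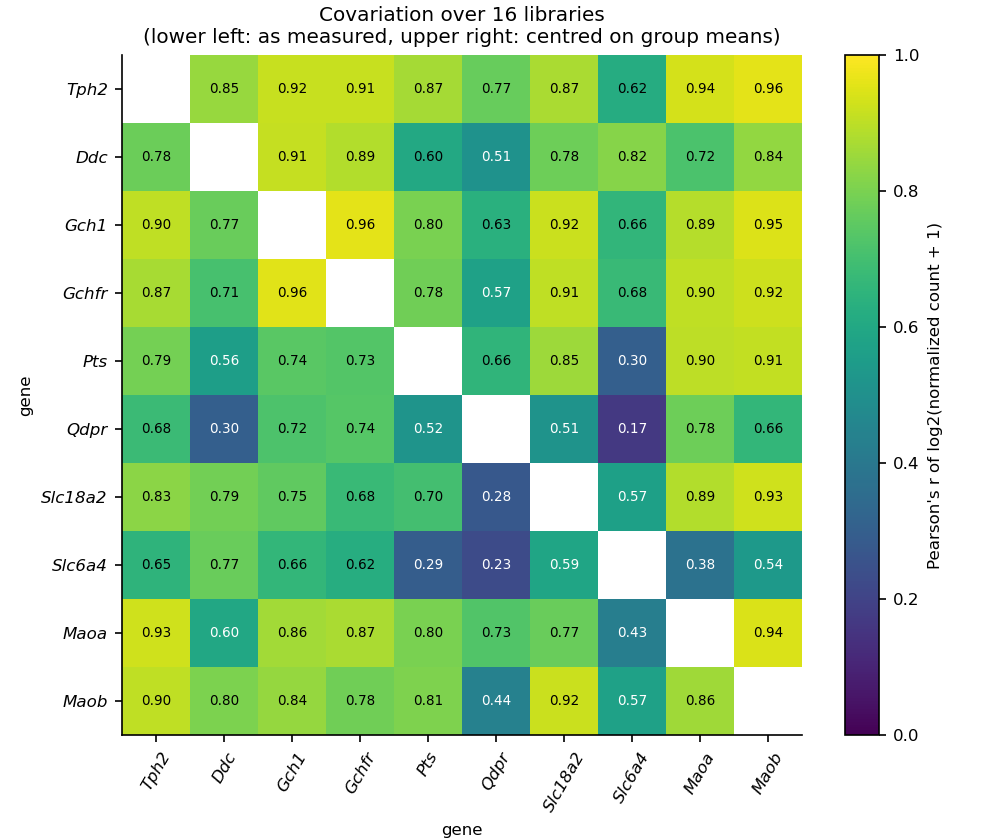
Pearson correlation of log2(normalized count + 1) between the 10 genes over 16 libraries, as measured in the lower left and after centring on the 6 group means in the upper right, on a color scale from 0 to 1. The rows and columns of Qdpr and Slc6a4 hold the low values, down to 0.23 as measured, and Gch1 with Gchfr the highest, 0.96.

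The genes most like Tph2 in centred values were Rplp0, Sncg, Pih1d1, Pgd and Rpl19, with r from 0.98 to 0.97, and the 5 most like Maoa were Rps19, Ftsj1, Snrpd2, Rpl37 and Snx6 (r = 0.98 for each). Several of these encode ribosomal proteins (Rplp0, Rpl19, Rps19 and Rpl37), and Sncg encodes gamma-synuclein. The 5 most like Maob were Rbm43, Tppp3, Tph2, Cthrc1 and Sncg, with r from 0.97 to 0.95, so that Tph2 itself ranked 3 for Maob.

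Against the marker lists, GABA neuron markers (Gad1, Gad2 and Slc32a1) varied inversely with 9 of the 10 genes, with r from -0.73 for Slc18a2 to -0.47 for Slc6a4, while Qdpr had r = -0.12. Of the 90 relations of genes with lists, 0 had an adjusted p under 0.05 by Pearson's r (lowest 0.0551) and 13 did by Spearman's rho, 8 of them with the GABA markers. For Slc18a2 rho was -0.84 (permutation p = 8.0e-05, adjusted p = 0.0072) and r was -0.62 without the 2 libraries farthest from its median. The summed GABA marker level ran from 34723 to 53019 normalized counts under saline and from 30747 to 56361 under DEX, so the treatments overlapped. The inverse relation was not particular to the GABA markers. Slc17a6, the only glutamate neuron marker measured, had r from -0.70 for Slc6a4 to -0.32 for Maoa, and 0.15 for Qdpr alone. With Slc6a4 its rho was -0.77 (permutation p = 0.00065, adjusted p = 0.0146). Its relations with Slc18a2 and Maob were also among the 13. Slc6a4 had the highest correlation of the 10 genes with the serotonergic transcription factors (r = 0.71, permutation p = 0.0019, adjusted p = 0.0551; rho = 0.61, permutation p = 0.0127, adjusted p = 0.0817), and r was 0.44 without con_sal_104 and con_sal_114. For Tph2 the same relation was r = 0.12, and r = 0.43 without AS saline 40 and con_dex_116, its 2 farthest libraries.

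Ratios of genes within a library do not depend on the scaling of that library, and 5 ratios were compared between DEX and saline. Treatment labels were permuted within phenotypes in a two-sided exact test over all 2000 arrangements, and adjusted p-values are over the 5 ratios. Ddc relative to Tph2 lay at log2 ratios of -0.98, -0.85 and -1.01 in control saline and -0.81, -1.08 and -0.83 in control DEX, which overlap. In PS it was -0.88 and -1.15 under saline and -0.76, -0.71 and -0.78 under DEX, and in AS -0.89, -0.96 and -1.297 against -0.77 and -0.70, so all DEX libraries of stressed mice were above their saline groups. The average difference was 0.20 (exact permutation p = 0.014, adjusted p = 0.0317), made of 0.037 in control, 0.26 in PS and 0.31 in AS. Without AS saline 40 the AS difference was 0.18 and the average 0.16 (exact permutation p = 0.0142). The share of other ratios with groups apart in this way was not counted. Of single genes, 10.1% in PS and 14.8% in AS had every DEX library below every saline library.

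Slc18a2 relative to Tph2 was higher by 0.19 with DEX (exact permutation p = 0.019, adjusted p = 0.0317), with 0.15 in control, 0.14 in PS and 0.27 in AS. It lay between -1.34 and -0.92 in the saline and between -1.04 and -0.78 in the DEX libraries. Both AS DEX values (-0.89 and -0.78) were above the 3 AS saline values (-0.98, -0.98 and -1.34), and the other phenotypes overlapped. The AS difference and the average were both 0.15 without AS saline 40 (exact permutation p = 0.0217 for the average). Maoa relative to Maob was lower by a log2 difference of -0.13 (exact permutation p = 0.0155, adjusted p = 0.0317), from a mean ratio of 0.323 under saline to 0.294 under DEX in normalized counts. Its log2 ratios in AS were -1.58, -1.51 and -1.68 under saline and -1.80 and -1.76 under DEX, without overlap, while control (-1.58, -1.71 and -1.62 against -1.65, -1.85 and -1.90) and PS overlapped. For both ratios the share of other ratios without overlap in AS was not counted. Slc6a4 relative to Tph2 (0.11, exact permutation p = 0.3515) and Gch1 relative to Gchfr (0.098, exact permutation p = 0.2035) did not pass, and without AS saline 40 their averages were 0.049 and 0.062. The unadjusted exact p rose above 0.05 without PS saline 68 for Maoa to Maob (0.06125), without PS saline 68 or AS DEX 42 for Slc18a2 to Tph2 (0.0775 and 0.08) and without AS DEX 38 or AS DEX 42 for Ddc to Tph2 (0.05375 and 0.07375). The ratios to Tph2 share that gene and are not separate results. On average Ddc differed with DEX by 0.027 and Slc18a2 by 0.011, against -0.18 for Tph2, which was not called. Because DEX samples were partly chosen by Tph2 in PS and AS, the part of that choice in the ratios to Tph2 was not tested.

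**Figure D5:**
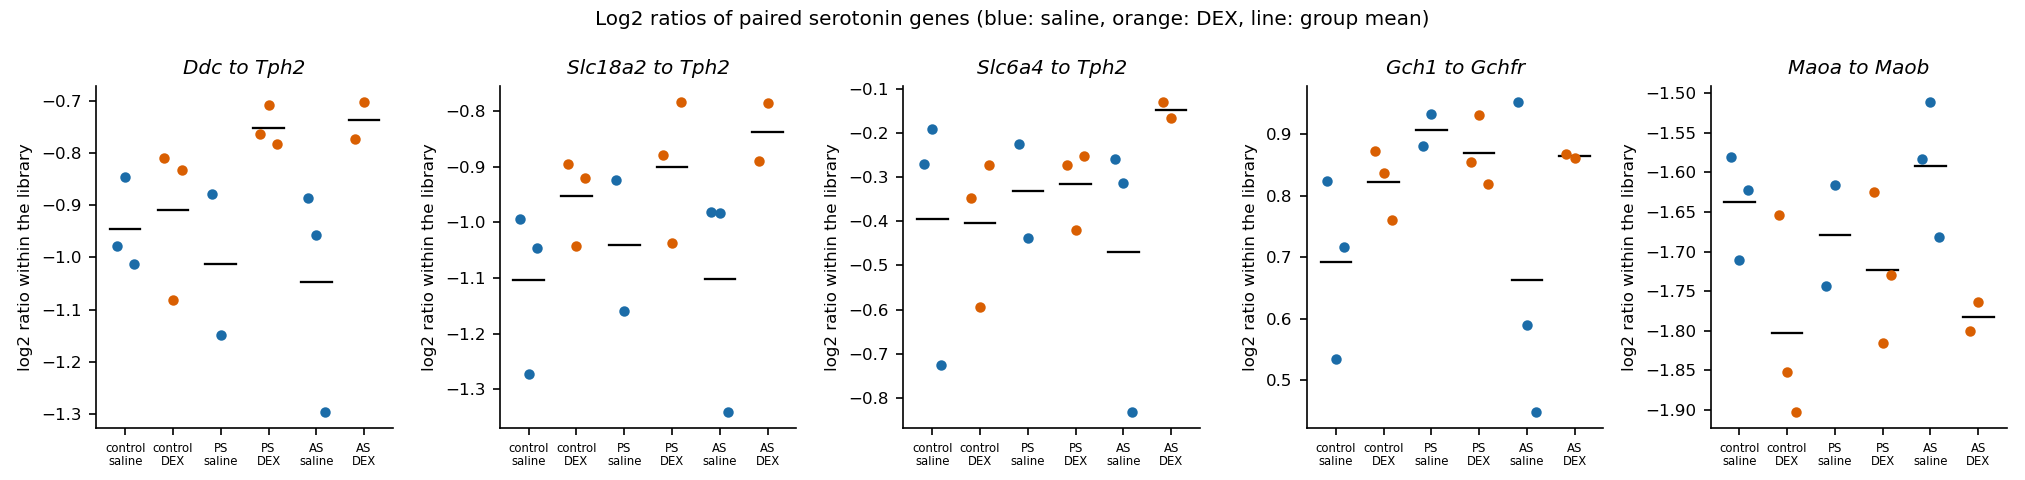
Log2 ratios of normalized counts of paired genes within each library by group, with saline in blue, DEX in orange and a line at each group mean; the vertical axes differ between panels and do not start at 0. For Ddc to Tph2 the PS DEX (-0.78 to -0.71) and AS DEX (-0.77 and -0.70) libraries lie above their saline groups, and for Maoa to Maob the AS DEX libraries (-1.80 and -1.76) lie below theirs. The share of other ratios with groups apart in this way was not counted.

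The surrounding pathway was described by 41 further genes, of which 27 were measured. With DEX on average 2 were called higher and 1 lower, where 4.31% of all genes were called (median of the 27 close to 0, at -6.62e-05). In the stress comparisons and the comparisons of responses limma called 0, where it called at most 0.00689% of all genes. Sult1a1, a sulfotransferase that conjugates monoamines and phenols, rose in every phenotype, from 70.3 to 189 normalized counts in the saline libraries to 396 to 526 in the DEX libraries (average log2 difference 2.13, SE 0.15, adjusted p = 1.57e-06). Slc7a5, the light chain of the large neutral amino acid transporter through which tryptophan enters the brain, rose from 3756 to 5167 under saline to 4911 to 6041 under DEX (0.33, SE 0.062, adjusted p = 0.00777) and was also called in AS alone (0.49, adjusted p = 0.0936), where both DEX libraries were above all saline libraries. Slc22a3, a low-affinity organic cation transporter that carries monoamines, fell with DEX (-0.51, SE 0.12, adjusted p = 0.0310), from 2435 to 4747 under saline to 2239 to 2986 under DEX, with overlap in 1 saline library of PS. Spr, the reductase that completes tetrahydrobiopterin, was at -0.20 (adjusted p = 0.406). Of the 8 genes of aldehyde clearance, which remove the product of the oxidases, 0 were called and 7 were negative (median -0.081). Th, the tyrosine hydroxylase that uses the same cofactor in dopamine neurons, was at 0.32 (adjusted p = 0.599), and Tph1, the peripheral hydroxylase, was not among the listed genes.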

How the data were processed

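The authors trimmed reads with fastp 0.20.1, aligned them with HISAT2 2.2.1 to mm10 (GRCm38), counted them per gene with featureCounts and fitted DESeq2 1.36.0, per the labels. The values used were the deposited signal: normalized counts, which are counts divided by 1 size factor per library. They became whole reads (tolerance 0.1) in 100% of cases when multiplied by that factor. The deposited tables of the authors' own comparisons hold log2 fold changes and p-values and were not used. Here limma 3.58.1 was fitted to log2(normalized count + 1) with a mean for each of 6 groups (10 residual and 3.88 prior degrees of freedom), with Benjamini-Hochberg adjustment over 14504 genes and calls at an adjusted p under 0.1. The fit was first tested on simulated data. A fold change on this scale understates that of low genes. All differences are the first-named group minus the second. Alternatives were DESeq2 1.42.0 and edgeR 4.0.16 on the recovered reads, pseudocounts of 0.1 and 10, a minimum mean of 100, TMM and quantile scaling, library weights, only the groups compared, marker scores as covariates, and leaving out each library. Correlations used 100000 permutations. A marker score averages, over the markers, how far each lay from its own mean on the log2 scale. Exon lengths and coordinates came from GENCODE vM21 on GRCm38, while the authors counted with vM22. The genes named were the 10 members, the called genes of the pathway and marker lists, the 5 most like Tph2, Maoa and Maob, and Fkbp5. List members that were not called (Spr, Th, Tph1 and single markers) are named outside that rule, after their values were seen. Members and lists were chosen with earlier results of these data known. By the methods of the study the libraries are biological replicates from separate animals. Leaving out AS saline 40 for the correlations was an alternative chosen after seeing the data.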

Additional observations from a re-analysis of the deposited data

How the results depend on the processing

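No paired analysis was possible because the numbers in the labels differ between groups. The count of serotonin genes called with DEX on average, 1, was 0 with the myelin covariate and ran from 0 to 1 when single libraries were left out. In AS alone the count of 0 became 1 with library weights, which called Maoa (log2 difference -0.28, adjusted p = 0.0556). Counts in the other comparisons kept their value in all alternatives. The averaged log2 difference of Qdpr ran from -0.39 to -0.27 over 28 alternatives and was called in 19 of them. The log2 ratios differed with DEX by -0.16 to -0.11 for Maoa to Maob, by 0.15 to 0.23 for Slc18a2 to Tph2 and by 0.16 to 0.25 for Ddc to Tph2 when single libraries were left out. For each of these 3 ratios the unadjusted exact permutation p rose above 0.05 at least once, up to 0.08.

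Over the 15 comparisons, 4200 values of single genes under an alternative were set beside the reported ones, 235 changed sign, and 27 of these also differed by more than the standard error of the reported value. None of the 27 was called in either fit, and the cause was not tested. With the astrocyte covariate they were Pts with DEX in PS (-0.27), and in AS against control under saline Pts (-0.28), Slc18a2 (-0.10), Maoa (-0.0046) and Maob (-0.10). In AS against PS under saline they were Gch1 (-0.13), Pts (-0.23) and Maob (-0.14) with that covariate, which also gave Pts -0.19 in AS against PS averaged over treatments and 0.071 for the difference of its response between AS and PS. With library weights Pts became -0.15 in AS against control and -0.085 in AS against PS under saline, and Qdpr became -0.0011 in AS against PS averaged over treatments. When single libraries were left out, the DEX difference ran from -0.40 to 0.040 for Gch1 in PS, from -0.51 to 0.056 for Pts in AS and from -0.30 to 0.027 for Maob in AS. In PS against control under saline Gch1 ran from -0.37 to 0.071. In AS against control under saline the ranges were -0.20 to 0.21 for Tph2, -0.26 to 0.31 for Pts, -0.20 to 0.20 for Slc6a4, -0.022 to 0.26 for Maoa and -0.11 to 0.22 for Maob. In AS against PS under saline they were -0.19 to 0.22 for Tph2, -0.13 to 0.31 for Gch1, -0.16 to 0.40 for Pts, -0.0012 to 0.28 for Maoa and -0.13 to 0.19 for Maob. In both saline comparisons of AS the lowest values for Tph2, Pts, Maoa and Maob came without AS saline 40, as did the highest DEX differences of Pts and Maob in AS. The correlations of Tph2 with Qdpr, Pts and Slc6a4 had an unadjusted permutation p above 0.05 in at least 1 subset of the libraries. The fits without AS saline 40 for correlations were chosen after seeing the data. The depth of the libraries was not the subject of an alternative.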
